A study of Mus musculus with 6 samples.

Results

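The genes described here encode the proteins of the cytosolic ribosome, the particle that translates every nuclear-encoded mRNA. They were chosen by symbol, as each row named Rpl or Rps with a number and at most 1 paralogue letter and digit, together with Rplp0, Rplp1, Rplp2 and Rpsa. The rule found 83 of the 20325 genes listed. Of these, 51 encode proteins of the large subunit, including the P-stalk genes, and 32 encode proteins of the small subunit. The rule does not find some genes, such as Fau, Rpl36al and Gnb2l1, which also encode ribosomal proteins under other names and are described with the companion lists.

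Gene expression was read by RNA-seq in neural stem cells of the mouse, the precursors of neurons and glia, in the course of reprogramming toward pluripotency. The 2 populations compared were sorted at day 7 of induction, with 3 replicates each: Nanog+E-cadherin+ cells, which stained for the pluripotency factor Nanog and the epithelial adhesion protein E-cadherin, and Nanog+E-cadherin- cells, which stained for Nanog alone. The cells of both populations came from mice of mixed 129/Black 6 strain at postnatal day 4. They were homozygous for an allele at the ColA1 locus through which doxycycline induces Oct4, Sox2, c-Myc and Klf4, and heterozygous for the reverse tetracycline transactivator at the Rosa26 locus. Both received doxycycline, so the comparison holds no uninduced cells, and both were fixed, permeabilised and decrosslinked before RNA was isolated. No label ties a replicate to its own culture or animal, and the p-values therefore measure the spread between these samples, which may be technical.

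A ribosome holds nearly every one of these proteins in a single copy, and their genes are transcribed at high and closely matched levels in growing cells. Their mRNAs typically begin with a cytosine followed by a run of pyrimidines, the 5′ terminal oligopyrimidine or TOP motif, through which the kinase mTOR and the protein LARP1 control their translation. A few members have a paralogue that replaces or accompanies them in particular tissues. Because the transcripts are short, abundant and the source of many processed pseudogenes, reads are easily shared between a member and its copies.

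The TOP start is shown for 6 members in windows of 15 bases before and 15 bases after an annotated start, on the strand of the gene, from RefSeq on build GRCm38.p6. Capitals mark the cytosine and the 4 pyrimidines that begin the transcript. These examples show what the motif looks like in genes described later, among them the S6 kinase substrate gene Rps6 (chr4:86857353-86857382, minus strand), the stalk gene Rplp2 (chr7:141447636-141447665, plus strand) and Rps27 (chr3:90213634-90213663, minus strand).
Rps6: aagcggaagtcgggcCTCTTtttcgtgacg
Rplp2: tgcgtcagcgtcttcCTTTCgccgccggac
Rpl28: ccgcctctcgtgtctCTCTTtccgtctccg
Rps18: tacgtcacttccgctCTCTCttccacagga
Rpl38: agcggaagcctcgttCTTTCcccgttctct
Rps27: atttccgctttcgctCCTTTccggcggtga
The annotated starts of Rps28 (chr17:33824548-33824577, minus strand) and Rpl22l1 (chr3:28805493-28805522, plus strand) do not have a C followed by 4 pyrimidines. The Rps28 start has the C but meets a G within the next 4 bases, and the Rpl22l1 start begins with a G.
Rps28: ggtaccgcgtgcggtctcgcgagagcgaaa
Rpl22l1: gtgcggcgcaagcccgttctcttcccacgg

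Windows were found for 63 of the 83 members, 75 windows in all. A C followed by 4 pyrimidines stood at the annotated start in 13 of these 75 windows (17.3%), against 823 of all 32851 windows (2.51%). In the 25 bases on each side of the start, CTTTC on either strand stood in 33.3% of the members' windows and in 12.5% of all windows. For CTTCC, also on either strand and of the kind read by ETS-family factors when seen as GGAAG, the shares were 42.7% and 21.7%. CTTTC can itself be part of a TOP start, so these counts overlap. The match is to annotated starts, which can lie a few bases from the start used in these cells.

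The 6 libraries held between 8851110 and 39630916 expected counts, with Nanog+E-cadherin- replicate 1 the deepest and Nanog+E-cadherin- replicate 3 the shallowest. Cdh1, the gene of E-cadherin, stood at 104, 143 and 139 CPM, the expected counts scaled to a common library size, in the Nanog+E-cadherin+ libraries, against 16.5, 20.3 and 15.4 CPM in the Nanog+E-cadherin- libraries, so the labels match the sort. Nanog was above 0 in all 6, at 115 to 211 TPM against 134 to 172 TPM. Of 9 neural stem cell markers, 8 stood at 1 TPM or more in every library, and the list summed to 507 to 866 TPM against 787 to 1171 TPM. Markers of microglia summed to at most 2.20 TPM in any library, with Tyrobp at 0 throughout. Nanog+E-cadherin- replicates 2 and 3 stood apart: 1426 olfactory and vomeronasal receptor genes, a family used by sensory neurons, summed to 1879 and 1209 CPM there, against 31.9 to 154 CPM in the other 4 libraries. The summed share and the median over the members are given with and without them. So are the members of highest or lowest fitted log2 fold change and the companion genes named.

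Ribosomal protein mRNA was a large part of the transcripts measured per length in both populations, between 17.4% and 27.9% of each library. The 83 genes summed to 27.9%, 18.4% and 20.6% of all TPM, a level per unit of transcript length, in Nanog+E-cadherin+ replicates 1 to 3, against 27.2%, 17.4% and 17.8% in Nanog+E-cadherin- replicates 1 to 3. The replicate 1 libraries were the high ones in both populations, and the ranges of the populations overlapped. The means were 22.3 ± 4.95% in Nanog+E-cadherin+ cells and 20.8 ± 5.51% in Nanog+E-cadherin- cells (SD, n = 3 each). The difference of 1.48 percentage points did not exceed the spread between libraries (exact two-sided permutation test, p = 0.5, where 3 against 3 cannot go below 0.1).

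Between libraries of equal replicate number the share was higher in the Nanog+E-cadherin+ library in all 3, by 0.705, 0.987 and 2.75 percentage points. The mean of these differences was 1.48 ± 1.11 points (SD, n = 3). Replicate 1, which involves neither of the libraries that stood apart, had the smallest of them. Without Nanog+E-cadherin- replicates 2 and 3 the unpaired difference was -4.88 points, since replicate 1 then stood alone for its population. Leaving out 1 library at a time also put it below 0 in 3 cases: -1.31 for Nanog+E-cadherin+ replicate 1, -0.20 for Nanog+E-cadherin- replicate 2, and -0.015 for replicate 3 of the same population. As a share of expected counts, which is not per length, the members took 12.7%, 6.56% and 7.47% in Nanog+E-cadherin+ cells, against 11.96%, 6.24% and 5.91% in Nanog+E-cadherin- cells. In a sorted bulk sample, fewer cells of a type and less RNA per cell cannot be told apart.

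**Figure D1:**
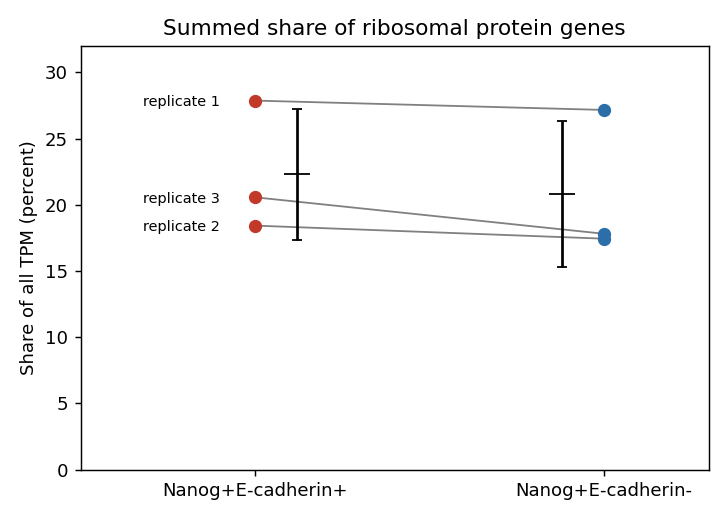
Summed TPM of the 83 ribosomal protein genes as a percent of all TPM in each library, with Nanog+E-cadherin+ on the left and Nanog+E-cadherin- on the right. Points are libraries, grey lines join equal replicate numbers, and the black marks are means with SD (n = 3). Each line slopes down to the right, by 0.705, 0.987 and 2.75 percentage points, while the points of replicate 1 lie far above the others.

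Within a library most members stood close together at the top of the expression range. Over the 80 members that passed the filter on low counts, the median of the mean level was 2725 TPM, and 67 of them exceeded 1000 TPM. Between 61 and 67 of the 100 genes of highest TPM in each library were members. The rank order of the 80 was much the same in every library, with rank correlations of TPM between 0.90 and 0.97. These points share the gene lengths and the annotation.

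The 5 members of highest mean level were Rplp1, Rps2, Rps20, Rps9 and Rpl41. Rplp1 encodes an acidic protein of the stalk that recruits translation factors, and it averaged 6466 ± 2037 TPM in Nanog+E-cadherin+ cells and 5872 ± 2154 TPM in Nanog+E-cadherin- cells (SD, n = 3 each). Rps2 and Rps9 encode proteins at the mRNA entry channel of the small subunit, and Rps20 encodes a protein of its head. Rps2 stood at 7958, 5055 and 5686 TPM in Nanog+E-cadherin+ cells, against 7214, 4573 and 4006 TPM in Nanog+E-cadherin- cells. Rpl41, which encodes the shortest ribosomal protein, ran from 3053 to 6864 TPM against 3824 to 7145 TPM. For each of these genes the populations overlapped, and neighbours in the order of mean levels differed by less than the SD over libraries.

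Among the members of lowest mean level were Rpl10l, Rpl3l, Rpl39l and Rpl34. Rpl10l and Rpl39l are paralogues used in male germ cells, and Rpl3l is the paralogue of striated muscle. These 3 held at most 5 expected counts in any library and fell below the filter, at 0 to 0.63 TPM, so they went into no test. Their parents were abundant: Rpl10, needed late in assembly of the large subunit, stood between 2686 and 3819 TPM over the 6 libraries, and Rpl3, which lies next to the peptidyl transferase centre, between 2634 and 3428 TPM. Rpl39, a protein of the exit tunnel, stood between 2126 and 3923 TPM. Rps15a, named after its values were seen, stood at 106 to 250 TPM with a listed transcript length of 5134 bases, the longest of the 83, while its expected counts were 2985 to 29177.

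**Figure D2:**
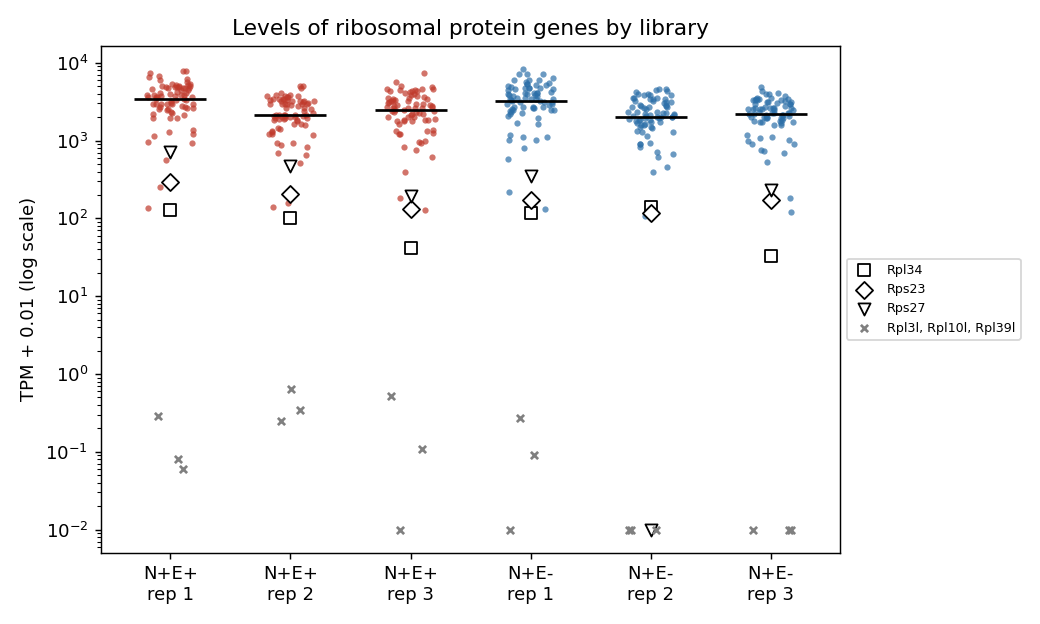
TPM plus 0.01, on a log scale, of the ribosomal protein genes in the 3 Nanog+E-cadherin+ libraries (N+E+, left) and the 3 Nanog+E-cadherin- libraries (N+E-, right). Dots are genes with horizontal jitter, black lines are medians of all 83, open symbols are 3 members with an abundant near-identical row, and crosses are the 3 members below the filter. The medians lie between 2022 and 3431 TPM, and Rps27 lies on the floor in Nanog+E-cadherin- replicate 2.

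The low levels of Rpl34, Rps23 and Rps27 stood beside a second row of nearly the same sequence. Over all members, 11 had such a row, of at least 95% identity over at least 300 bases, and 4 of these rows had a mean level over 1000 TPM. Rpl34, which encodes a large subunit protein (chr3:130726831-130730398, minus strand, GRCm38), held a mean of 94.4 TPM, against 2164 TPM for the processed pseudogene Rpl34-ps1 (chr6:71124610-71124963, plus strand), 99.4% identical over 354 bases. The lines below show 45 bases of the transcript of each, with the base that differs in capitals. They differ at 2 bases of the compared length.
Rpl34: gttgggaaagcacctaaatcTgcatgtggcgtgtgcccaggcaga
Rpl34-ps1: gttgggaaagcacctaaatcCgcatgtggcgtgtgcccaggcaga

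For Rps23 and Rps27 the aligned bases did not differ at all. Rps23, which encodes a protein of the decoding centre and lies at chr13:90922958-90924950 on the plus strand, held a mean of 181 TPM. The row Gm15450, named Rps23-ps1 in the annotation (chr3:37714740-37715164, plus strand), is identical over 425 bases and held 4546 TPM. Rps27, a zinc-binding small subunit protein (chr3:90212522-90213651, minus strand), held 325 TPM. The row Gm9846, which RefSeq calls Rps27rt (chr9:114982366-114982739, minus strand), is identical over 341 bases and held 3099 TPM. The authors' counting divides a read that matches several rows between them, so the split within each of these pairs is uncertain.

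The highest fitted log2 fold change of any member was in one of these rows. Rps27 stood at 704, 476 and 191 TPM in Nanog+E-cadherin+ cells, against 347, 0 and 233 TPM in Nanog+E-cadherin- cells. It is listed at 0 in Nanog+E-cadherin- replicate 2, where Gm9846 held 2708 TPM. The log2 fold change of Nanog+E-cadherin+ over Nanog+E-cadherin- was 1.29 ± 1.40 (SE), and 0.71 without that library. With the counts of both rows summed it was 0.24 ± 0.45, close to the median of all members.

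Rps23 and Rpl34 also moved toward the other members when the rows were summed. Rps23 stood at 290.4, 206 and 130.3 TPM, against 174, 117 and 171 TPM in Nanog+E-cadherin- cells, a log2 fold change of 0.60 ± 0.50, and of 0.18 ± 0.56 when summed. Rpl34 had 0.02 ± 0.72 alone and 0.25 ± 0.58 summed. None of these values passed the test.

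**Figure D3:**
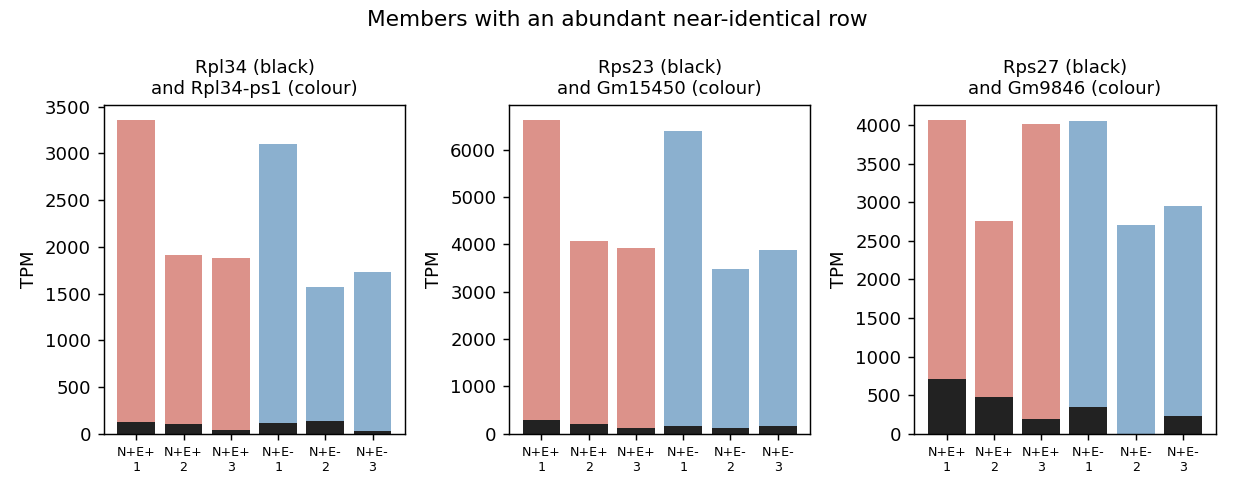
TPM of 3 ribosomal protein genes (black) stacked with that of their near-identical row (colour) in each library, Nanog+E-cadherin+ libraries (N+E+, red) left of Nanog+E-cadherin- libraries (N+E-, blue), numbers being replicates. Most of each stack belongs to the row that is not the member, and the black part of Rps27 is absent in Nanog+E-cadherin- replicate 2.

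No member passed the test between the populations, while most were fitted slightly higher in Nanog+E-cadherin+ cells. In edgeR's quasi-likelihood test on the expected counts, with group as the only term, 0 of the 80 members had an adjusted p under 0.05, as did 0% of all 13460 genes tested. At an unadjusted p under 0.05 there were again 0 members, against 2.67% of all genes. With group only, DESeq2 called 0 members, where it called 0.156% of all genes, as did edgeR without the filter, where 0.00548% of all genes passed. Limma-voom and limma on log2 TPM called 0 members and 0 genes. The fitted change was above 0 for 75 of 80 members, against 48.5% of all genes, and the median log2 fold change of the members was 0.19, against -0.01 over all genes. Other genes of 514.5 to 937 bases, the central range of the members' lengths, had a median of 0.15 (n = 617), and those of them at 100 CPM or more had 0.17 (n = 114), close to that of the members. With TPM, 57 of 80 were above 0 and the median was 0.10, where the median of all genes was -0.08.

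The sign of the median depended on single libraries. Leaving out Nanog+E-cadherin+ replicate 1 gave -0.28, while leaving out replicate 2 or 3 of that population gave 0.44 and 0.37. For Nanog+E-cadherin- cells, leaving out replicate 1 gave 0.76, and leaving out replicate 2 or 3 gave -0.02 and -0.03. Where both libraries that stood apart were left out the median was -0.50, with 1 library standing for Nanog+E-cadherin- cells and assumed to vary like the others. In that fit 2 of 80 members were above 0, Rps27 (0.21) and Rps23 (0.05). Rps28, Rpl22l1, Rpl19 and Rpl26, described later as the members of highest fitted value without an abundant copy, were then at -0.11, -0.22, -0.27 and -0.34. Rpl21, Rpl23, Rpl39, Rpl17 and Rps6, at the other end, lay between -0.74 and -0.65. Each of these fits changes the balance of replicate numbers between the populations.

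Replicate 1 libraries of both populations had higher levels of nearly every member, by more in CPM than in TPM. In 79 of 80 members both replicate 1 libraries had a higher CPM than the other 4, against 24.6% of all genes. The median log2 ratio of CPM of replicate 1 over replicates 2 and 3 was 1.17 in Nanog+E-cadherin+ cells and 1.25 in Nanog+E-cadherin- cells. Over all genes it was -0.03 and 0.02. The median level of the 83 members was 3431 TPM in replicate 1, against 2126 and 2470 TPM, in Nanog+E-cadherin+ cells. In Nanog+E-cadherin- cells it was 3242 TPM, against 2022 and 2200 TPM. Across the 76 members without an abundant copy, these ratios in the populations correlated at r = 0.65 (rho 0.59), over points that share the 6 libraries and the transcript lengths. Other genes of like length had similar ratios: the 617 other genes of 514.5 to 937 bases had medians of 0.90 and 1.01, and the 114 of these at 100 CPM or more had 1.12 and 1.07. Mesenchymal markers, 7 genes, summed to 1018 TPM in replicate 1, against 4101 and 4808 TPM in replicates 2 and 3, of Nanog+E-cadherin+ cells, and to 1218 TPM against 4277 and 5355 TPM in Nanog+E-cadherin- cells. Of 8 neuron markers 7 were found, and 3 of these stood at 1 TPM or more in every library. Their sum was high in replicate 1, at 593 TPM against 197 and 136 TPM in Nanog+E-cadherin+ cells. In Nanog+E-cadherin- cells the sum of the 7 was 831 TPM against 432 and 237 TPM. The sums of neuron, mesenchymal and neural stem cell markers were each lower in Nanog+E-cadherin+ cells in all 3 pairs. Epithelial markers, a list that holds Cdh1, summed higher there in all 3 pairs. Pluripotency markers summed higher there in replicates 1 and 2 and lower in replicate 3, at 1004 TPM against 1150 TPM in Nanog+E-cadherin- cells. Such sums are levels of mRNA and do not count cells. The part of transcript length and of cell types in the replicate difference, or in the difference between the populations, was not tested.

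Libraries of equal replicate number varied together, so the number was also used as a block. The blocked fit called 41 of all genes (0.305%) and 0 of the members. At an unadjusted p under 0.05, 23 members were higher, against 5.51% of all genes, and 1 was lower, against 5.19%. The smallest adjusted p of a member in edgeR's blocked test was 0.177, for Rps28. With the block, DESeq2's Wald test called 8 members higher, where it called 1.37% of all genes higher, and limma-voom called 2, where it called 0.981% higher. The 8 were Rps28, Rpl27a, Rps13, Rpl19, Rpl15, Rpl26, Rpl37 and Rpl22l1, and the 2 were Rps28 and Rpl19. Rpl27a, Rps13, Rpl15 and Rpl37 are named after their values were seen. Without both libraries of replicate 1, 2 or 3, edgeR's blocked fit called 1, 0 and 9 members higher, where it called 0.619%, 0.7% and 1.82% of all genes higher. The blocked median was 0.20, against 0.02 over all genes, 0.21 over other genes of like length and 0.18 over those at 100 CPM or more. With the block 74 of 80 members were above 0, against 51.9% of all genes.

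Within equal replicate numbers the members leaned the same way, by small amounts. Ratios within pairs are of CPM, here and below. Higher in all 3 pairs were 45 of 80 members, against 18.9% of all genes. Lower in all 3 were 3 of 80, among them Rpl21 and Rpl39, against 17.3%. The other 32 were mixed. Genes of like length at 100 CPM or more were higher in all 3 pairs in 38.6% of cases. In no member did every Nanog+E-cadherin+ library exceed every Nanog+E-cadherin- library, or lie below it, against 3.74% and 3.25% of all genes. The median log2 ratio of the members was 0.15 in replicate 1, 0.11 in replicate 2 and 0.39 in replicate 3. The pair with neither of the libraries that stood apart thus had a ratio above 0 as well. With log2(TPM + 1) in place of CPM the medians were 0.05, 0.11 and 0.18.

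The medians of the subunits lay close together. All 32 small subunit members were fitted above 0, with a median log2 fold change of 0.23, and 43 of 48 large subunit members were, with a median of 0.15. On the TPM scale 24 of the 32 small subunit members and 33 of the 48 large subunit members were above 0. In the blocked fit the medians were 0.25 and 0.17. Members with a C and 4 pyrimidines at an annotated start had a median of 0.21 (n = 13), and members with windows but without it 0.17 (n = 47). These differences were not tested.

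Among members whose reads are not shared with an abundant copy, Rps28, Rpl19, Rpl22l1 and Rpl26 had the highest fitted values. Rps28, a protein of the small subunit head, stood at 5364, 3749.9 and 4406 TPM in Nanog+E-cadherin+ cells, against 4103, 2590.4 and 3531 TPM in Nanog+E-cadherin- cells. In CPM every pair was higher in Nanog+E-cadherin+ cells by a like amount, with log2 ratios of 0.49, 0.53 and 0.53, while the populations overlapped. The TPM values were also higher in every pair, by less even amounts. The log2 fold change was 0.51 ± 0.45 (SE) with group only and 0.52 ± 0.12 with the block. Rpl19, which contributes a bridge between the subunits, stood at 5018, 2962 and 3258 TPM, against 3883, 2519 and 2259 TPM in Nanog+E-cadherin- cells. Its log2 ratios of CPM within pairs were 0.47, 0.23 and 0.74. Rpl26, a protein near the exit tunnel, stood at 3750.0, 1976 and 2419 TPM, against 2974, 1293 and 2284 TPM in Nanog+E-cadherin- cells. It had log2 ratios of CPM of 0.44, 0.61 and 0.29, and a fitted value of 0.43 ± 0.58 with group only. For both genes the populations overlapped and replicate 1 was the highest library in each.

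Rpl22l1, Rps27l and Rpl7l1 were the paralogues detected. Rpl22l1, the paralogue of the RNA-binding large subunit protein Rpl22, stood at 969, 699.7 and 836 TPM in Nanog+E-cadherin+ cells, against 811, 398 and 728 TPM in Nanog+E-cadherin- cells. Its log2 fold change was 0.46 ± 0.47 (SE), and 0.52 ± 0.15 with the block, with an adjusted p of 0.268 in edgeR's blocked test. Its parent Rpl22 stood at 565, 509 and 389 TPM, against 574, 458 and 533 TPM in Nanog+E-cadherin- cells, a log2 fold change of 0.01 ± 0.40 and a mixed direction over the pairs. The difference between parent and paralogue was not tested. Rps27l had 0.27 ± 0.44, with log2 ratios of CPM above 0 in all 3 pairs (0.34, 0.37 and 0.05). In TPM its replicate 3 pair went the other way, at 921 TPM against 1031 TPM in Nanog+E-cadherin- cells. Rpl7l1, related to Rpl7, stood lower than its parent, at 119 to 156 TPM over the 6 libraries against 1725 to 2780 TPM, and had a log2 fold change of 0.17 ± 0.30, against 0.09 ± 0.48 for Rpl7.

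At the other end, Rpl21, Rpl23, Rpl39, Rpl17 and Rps6 had values at or below 0 or next to it. Rpl21, a large subunit protein, stood at 927, 648 and 617 TPM in Nanog+E-cadherin+ cells, against 1026, 832 and 904 TPM in Nanog+E-cadherin- cells, a log2 fold change of -0.20 ± 0.44 (SE), and -0.25 ± 0.13 with the block. It is 98.6% and 97.9% identical to stretches of 2 other rows, and with those summed the value was -0.13 ± 0.42. Rpl23, which can bind the p53 ligase Mdm2, had -0.13 ± 0.47. Rpl39 had -0.09 ± 0.51, and Rpl17, another protein of the exit tunnel, -0.04 ± 0.50. Rps6, whose phosphorylation by S6 kinase is a common readout of mTOR activity, stood at 2448, 1873 and 1827 TPM, against 2694, 2048 and 1801 TPM in Nanog+E-cadherin- cells, with a log2 fold change of 0.001. Its populations overlapped, and only replicate 3 of the pairs was higher in Nanog+E-cadherin+ cells.

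**Figure D4:**
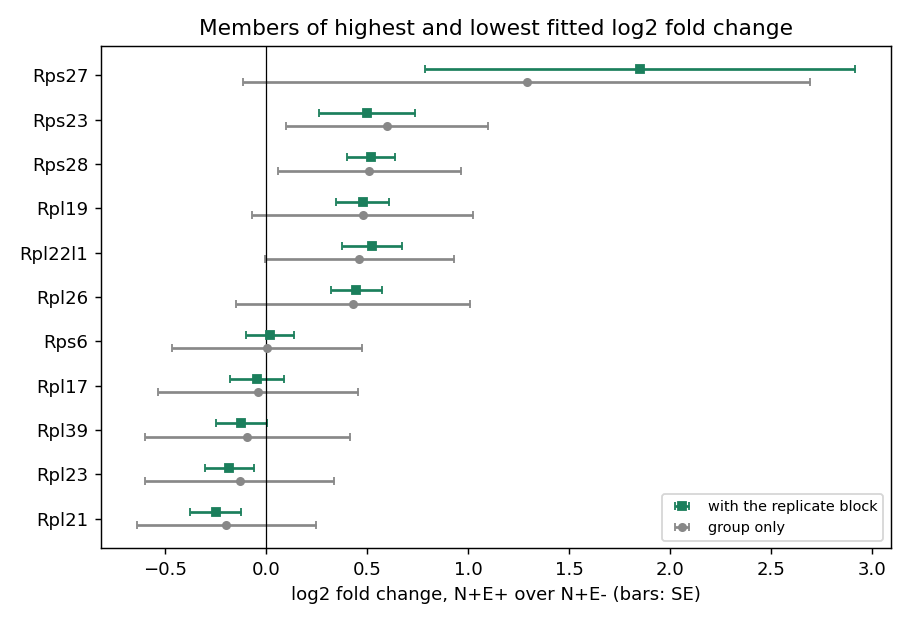
Fitted log2 fold change of Nanog+E-cadherin+ (N+E+) over Nanog+E-cadherin- (N+E-) for the 6 members of highest value and 5 of the lowest with group only, in edgeR. Circles are the fit with group only, squares the fit with the replicate block, and bars are SE. Rps28, Rpl19, Rpl22l1 and Rpl26 lie near 0.5 with narrow bars in the blocked fit, and Rps27 has the widest bars.

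The stalk and the other landmarks of the subunits lay close to the middle of the members. Rplp0, the stalk's anchor on the ribosome, had a log2 fold change of 0.16 ± 0.50 (SE), and its partners Rplp1 and Rplp2 had 0.21 ± 0.57 and 0.12 ± 0.56. All 3 had a ratio near 0 in replicates 1 and 2 and a higher one in replicate 3, at 0.67, 0.77 and 0.46. Rpsa, a small subunit protein also known as a laminin receptor, had 0.25 ± 0.50 and was higher in all 3 pairs. Rps27a, made as a fusion with ubiquitin, had 0.21 ± 0.55, and the X-linked Rps4x 0.24 ± 0.46. Rpl3 and Rpl10 had 0.15 ± 0.40 and 0.12 ± 0.43. Rps2, Rps20, Rps9 and Rpl41, the most abundant beside Rplp1, had 0.33 ± 0.56, 0.26 ± 0.55, 0.18 ± 0.47 and 0.09 ± 0.60. Without the libraries that stood apart only replicate 1 was left for Nanog+E-cadherin- cells. In that fit the stalk genes, the landmarks and these abundant members lay between -0.73 (Rpl41) and -0.36 (Rpl3).

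The pattern of high and low members was alike in replicates 1 and 2 and different in replicate 3. Over the 76 members without an abundant copy, the log2 ratios of replicates 1 and 2 correlated at r = 0.81 (rho 0.80), those of replicates 1 and 3 at -0.03 (rho -0.07) and those of replicates 2 and 3 at 0.13 (rho 0.10). In replicate 3 the ratio correlated with the GC content of the transcript at 0.53 (rho 0.56), against -0.23 and -0.24 in replicates 1 and 2. The 38 members of lower GC (40.6% to 50.7%) had a median ratio of 0.24 in replicate 3, and the 38 of higher GC (50.9% to 60.8%) had 0.49. These correlations are over members of the same 6 libraries and describe them alone. Rps19, named after its values were seen, had the lowest ratio of the 76 in replicate 1 (-0.14) and the highest in replicate 3 (0.97). Rps28 and Rpl22l1 lay above, and Rpl21 and Rpl23 below, the median of the members in all 3 replicates. The spread over the 80 members, as SD of the log2 ratio, was 0.21, 1.28 and 0.45 in replicates 1 to 3, and over the 77 members with at least 100 expected counts in every library it was 0.16, 0.25 and 0.29.

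**Figure D5:**
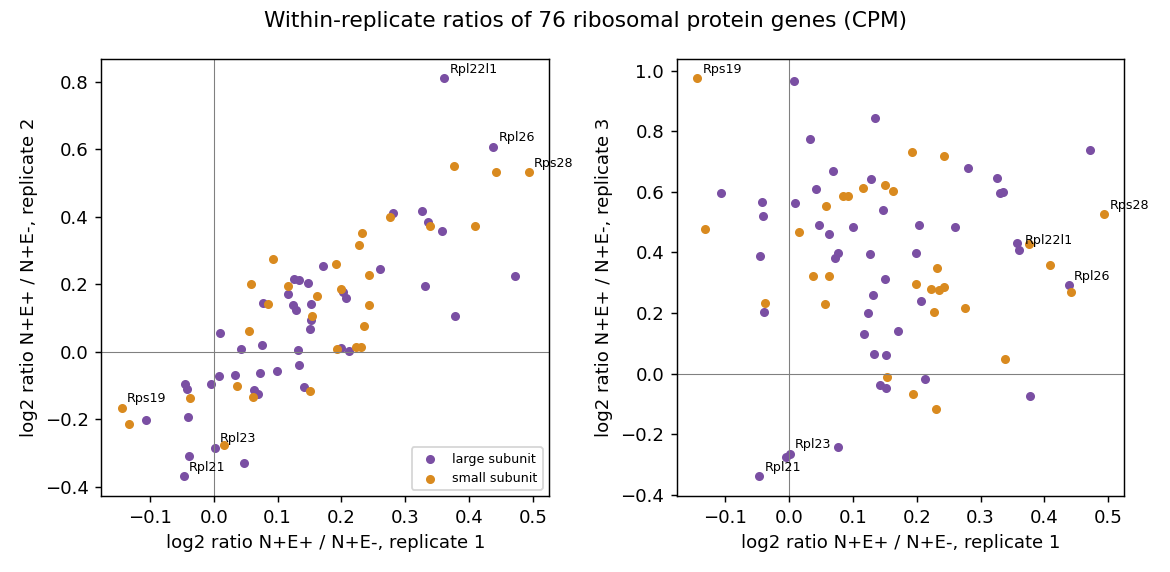
Log2 ratio of Nanog+E-cadherin+ over Nanog+E-cadherin- CPM within replicate 1 (horizontal) against that within replicate 2 (left) and replicate 3 (right), for the 76 tested ribosomal protein genes without an abundant near-identical row, coloured by subunit. The points follow a rising band on the left (r = 0.81) and form no band on the right (r = -0.03).

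Of the genes that work beside the ribosome, 0 passed in either edgeR fit. The rate among the 13460 genes tested was 0% without the block and 0.305% under it, so this count says little about lists so short. The medians of these lists, in the fit without the block, lay between 0.06 and 0.16, where every tested gene together gave -0.01. Of the ribosomal proteins outside the symbol rule all 4 found were fitted above 0, with a median log2 fold change of 0.12. Gnb2l1, the scaffold protein also called Rack1, had 0.17 ± 0.48 (SE). Of 75 mitochondrial ribosomal proteins, which belong to a separate ribosome, 63 were fitted above 0, against 48.5% of all genes, with a median of 0.16. The 617 other genes in the central length range of the members had a median of 0.15. Mrpl2 had 0.47 ± 0.45 and Mrpl16 0.50 ± 0.42 with group only, and 0.54 ± 0.17 and 0.56 ± 0.21 with the block. The mitochondrial genes also had high replicate 1 ratios, with medians of 0.94 in Nanog+E-cadherin+ cells and 0.88 in Nanog+E-cadherin- cells.

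Translation factors with TOP mRNAs had a median of 0.06, with 13 of 17 above 0, against 48.5% of all genes. Higher in all 3 pairs were 17.6% of these factors, against 18.9% of all genes. The 17 factors included Eef1g, a subunit of elongation factor 1, at 0.26 ± 0.44, and the nucleolar chaperone Npm1 at 0.32 ± 0.45. Of 34 ribosome biogenesis genes 31 were above 0, against 48.5% of all genes, with a median of 0.13. Nop10, a protein of the H/ACA particles that modify rRNA, had the smallest p of that list in the blocked fit, and Utp20, a factor of early small subunit assembly, with group only. Nop10 stood at 486, 234 and 254 TPM in Nanog+E-cadherin+ cells, against 336, 142 and 148 TPM in Nanog+E-cadherin- cells. Its log2 fold change was 0.71 ± 0.66 with group only and 0.78 ± 0.15 with the block, where the adjusted p was 0.114 in edgeR's test. Utp20 had 0.44 ± 0.27 with group only. Of 13 regulators of mTOR and TOP mRNAs 7 were above 0, against 48.5% of all genes, with a median of 0.09. Tsc1, a repressor of mTOR signalling, had -0.55 ± 0.34, and Larp4 had -0.29 ± 0.30. Tsc1 stood at 26.9, 38.2 and 39.7 CPM in Nanog+E-cadherin+ cells, against 30.1, 66.1 and 57.8 CPM in Nanog+E-cadherin- cells, highest in the libraries that stood apart. Without those libraries Tsc1 had 0.21 and Larp4 0.06. In that fit Nop10 had -0.24 and Utp20 0.50, Eef1g -0.38 and Npm1 -0.17, Mrpl2 -0.26 and Mrpl16 -0.15, and Gnb2l1 -0.51. Of 7 Snhg and Gas5 host genes of small nucleolar RNAs, 0 were found by symbol among the genes listed, so they were not analysed.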

How the data were processed

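Libraries were made with an Illumina TruSeq RNA kit, per the labels' protocols. Per the submitters' processing notes, reads were handled with Bowtie and with RSEM 1.2.4 on build mm9. Settings and strand use are not given in the sources at hand. An expected count and a TPM value, estimated by the authors for every gene, are in the deposited files, per the file headers. The deposited expected counts were rounded and tested with edgeR 4.0.16 in R 4.3.3 (TMM, filterByExpr with minimum count 10 and minimum total 15, quasi-likelihood, Benjamini-Hochberg over 13460 genes, threshold 0.05), with group as the only term. TMM also scales the CPM printed, apart from the receptor sums, which use library totals. The deposited TPM values gave levels, shares and, as log2(TPM + 1) and log2(TPM + 0.1) in limma 3.58.1, alternatives. DESeq2 1.42.0, limma-voom, other scalings and filters and left-out libraries were further alternatives. The fits were tested on simulated data.

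Both populations carry replicate numbers 1 to 3. Same-numbered libraries correlated at 0.71, 0.38 and 0.43 across genes in their deviations from the group means, all above 0.1, and others at -0.58 to 0.09, so the pairing comes from the values; the labels name no shared culture. Near-identical rows were found with BLAST 2.17.0 among GENCODE M21 transcripts, which 20256 of 20325 rows matched by name. Start windows came from RefSeq (GRCm38.p6) and loci from GENCODE (GRCm38); neither is the build of the files, whose coordinates were not used. Permutation tests used scipy 1.17.1. Depth ran from 8851110 to 39630916 expected counts per library, and the tested members other than the 4 with abundant copies held at least 932 in each.

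The members, lists and rules were chosen with earlier results of these data known. Named members are the 5 of highest and 5 of lowest mean TPM, the 6 of highest and 6 of lowest log2 fold change, any called member, paralogues with their parents, the stalk genes and 6 landmarks, 32 in all; of each companion list the 2 genes of smallest p are named. Of these, 1 member and 1 companion gene are not reported here.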

Additional observations from a re-analysis of the deposited data

How the results depend on the processing

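The median log2 fold change of the members kept its sign under every scaling, filter, tool and unit, and with near-identical rows summed, a choice made after seeing the data. Leaving out 1 library gave -0.28 to 0.76, below 0 in 3 of 6 cases (-0.28, -0.02 and -0.03). Leaving out Nanog+E-cadherin- replicates 2 and 3, also chosen after seeing the data, gave -0.50. The difference in share, 1.48 points with all libraries, was -1.31 when Nanog+E-cadherin+ replicate 1 was left out, -0.20 and -0.015 when replicates 2 and 3 of the other population were, and -4.88 with those 2 left out together. Over the 6 libraries left out in turn it ran from -1.31 to 4.66. Of the 29 named members tested, 23 kept their fitted sign under all 16 scalings, filters, tools, units and blocks, and 2 under all 10 fits with left-out libraries.

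With the replicate block, calls over all genes were 29 higher and 12 lower (the same counts with near-identical rows summed), 23 and 12 with library totals, 32 and 12 with DESeq2 size factors, 185 and 119 with DESeq2, 132 and 132 with limma-voom, and 11 and 3 with log2(TPM + 1). Members called higher with the block were 8 with DESeq2 and 2 with limma-voom, and 0 with the other blocked fits of all 6 libraries. Without both libraries of 1 replicate number the blocked fit called 84 to 247 genes higher and 45 to 202 lower, and 0 to 9 members higher. It called 84 and 98 genes and 1 member (Rps27) without replicate 1, 95 and 45 genes without replicate 2, and 247 and 202 genes and 9 members without replicate 3. With group only, DESeq2 called 18 genes higher and 3 lower, and edgeR without a filter called 1. The causes were not tested. The SD over members, at a median of 0.45 over the 3 replicates, was 0.25 with at least 100 counts in every library and 0.25 without Rps27 and 1 other member, chosen after seeing the data, and 0.33, 0.74 and 0.86 as the mean of the other 2 replicates without replicate 2, 3 or 1.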
